A study of Rattus norvegicus with 15 samples.

Results

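Mt-atp6, Mt-atp8 and Mt-cyb are protein-coding mRNAs of the mitochondrial genome, and they are described here across RNA recovered with the RNA-binding protein hnRNP A2, RNA recovered with IgG, and input RNA of rat oligodendrocytes. They are 3 of the 30560 gene identifiers counted, and were taken by their Ensembl identifiers, ENSRNOG00000031979 for Mt-atp6, ENSRNOG00000033299 for Mt-atp8 and ENSRNOG00000031766 for Mt-cyb. Which measured values they were chosen by is not stated, but earlier results of these libraries were known. Among these, other mitochondrial genes led the comparison of hnRNP A2 with IgG, and Mt-atp8 differed between amyloid-β and control immunoprecipitates. The amyloid-β effect within hnRNP A2 libraries is therefore given for these mRNAs as a description with no p-value. For the same reason the other comparisons cannot be taken as independent of the choice.

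The study asked which RNAs hnRNP A2 carries in oligodendrocytes and whether oligomeric amyloid-β changes them. Cells were primary cultures from newborn Sprague-Dawley rat forebrain cortex, isolated as precursors from mixed glia by shaking and kept in a maturation medium. The 15 libraries form 5 groups of 3: hnRNP A2 immunoprecipitates of amyloid-β cells, hnRNP A2 immunoprecipitates of control cells, IgG immunoprecipitates, input RNA of amyloid-β cells and input RNA of control cells. Replicates carry the numbers 2, 3 and 4 in every group. For IgG the treatment label names a pool of amyloid-β and control, while the names of their deposited files carry only the amyloid-β mark, so it is not settled whether control cells are in the IgG pool to which control immunoprecipitates are compared. The dose and duration of amyloid-β on the cells, and the vehicle given to control cells, were not stated in the labels. The series is described as having biological replicates, but the labels do not say which cultures or animals a number stands for, so p-values measure the spread between these libraries. Markers of oligodendrocytes and of other glia were not analysed here.

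Depth differed most among the IgG libraries. Counts assigned to genes were 28056346 to 33168494 in hnRNP A2 libraries, 81463, 4096829 and 1895870 in IgG libraries 2, 3 and 4, and 14773400 to 25751522 in input. IgG library 2 held only 9 counts of Mt-atp6, 4 of Mt-atp8 and 11 of Mt-cyb, so the fold changes over both treatments that involve IgG are also given without it. Intervals given for a single library cover counting error only.

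Mitochondrial DNA is transcribed into long precursors that are cut into separate RNAs inside the organelle. Mt-atp8 and Mt-atp6 stay together on a single mRNA with overlapping reading frames, whose products are membrane subunits of ATP synthase, the enzyme that makes ATP from the proton gradient. Mt-cyb encodes cytochrome b, the mitochondrially encoded subunit of complex III, which passes electrons to cytochrome c and helps build that gradient. hnRNP A2 is known as a nuclear and cytoplasmic protein that binds mRNAs and takes part in their transport in oligodendrocytes. Because Mt-atp6 and Mt-atp8 share a transcript and a stretch of sequence, their values are not independent, and the labels do not say how reads in the shared stretch were assigned. The text counts 3 mRNAs by gene identifier, although Mt-atp6 and Mt-atp8 are a single transcript. The same holds for reads that also match nuclear copies of mitochondrial DNA.

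The 3 mRNAs together took 0.366% ± 0.150 of gene counts in hnRNP A2 libraries (SD, n = 6), 0.0467% ± 0.0156 in IgG libraries (SD, n = 3) and 0.726% ± 0.125 in input libraries (SD, n = 6). Each mRNA had its highest mean in input, the next in hnRNP A2 immunoprecipitates and its lowest in IgG immunoprecipitates. Normalised read counts below are CPM, counts scaled to a common library total, after TMM scaling, which sets libraries against each other by the bulk of their genes. Levels are compared between libraries for each mRNA and not between mRNAs, because the counts are not corrected for transcript length.

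Mt-atp6, which encodes the membrane subunit that forms the proton path of ATP synthase, was lower in hnRNP A2 RNA than in input. It had 485, 1299 and 1566 CPM in amyloid-β immunoprecipitates 2, 3 and 4, and 397, 1044 and 1139 CPM in control immunoprecipitates. The IgG libraries had 85.9, 154 and 313 CPM. Input had 3778, 2607 and 4775 CPM in amyloid-β cells and 4947, 3609 and 4968 CPM in control cells. No hnRNP A2 library reached the lowest input library, and none fell to the highest IgG library, so the 3 kinds of library did not overlap. Of 15344 genes kept by the same filter over all libraries, 4.8% had no overlap among the 3 kinds in any order and 2.66% had none in this order. Library 2 was the lowest hnRNP A2 library of either treatment and also the lowest IgG library, but not the lowest input library.

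Mt-atp8, which encodes a small membrane subunit of the same enzyme, kept the same order. It had 121, 222 and 173 CPM in amyloid-β immunoprecipitates and 88.8, 132 and 126 CPM in control immunoprecipitates. The IgG libraries had 38.2, 36.1 and 39.0 CPM. Input had 1057, 504 and 805 CPM in amyloid-β cells and 1371, 648 and 969 CPM in control cells. Again the 3 kinds of library did not overlap, as for 2.66% of all genes in this order. The close IgG values rest on few reads, since the share behind the 4 counts of library 2 was 0.00491% of gene counts with a 95% Wilson interval of 0.00191% to 0.0126%.

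Mt-cyb had 1020, 2456 and 3241 CPM in amyloid-β immunoprecipitates and 1029, 2094 and 2420 CPM in control immunoprecipitates. The IgG libraries had 105, 254 and 196 CPM. Input had 4236, 2496 and 4318 CPM in amyloid-β cells and 5647, 3918 and 5080 CPM in control cells. Its hnRNP A2 libraries all lay above its IgG libraries, as they did for 20.4% of all genes, but the highest hnRNP A2 library lay above the lowest input library, so for Mt-cyb these neighbours in the order overlapped.

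**Figure D1:**
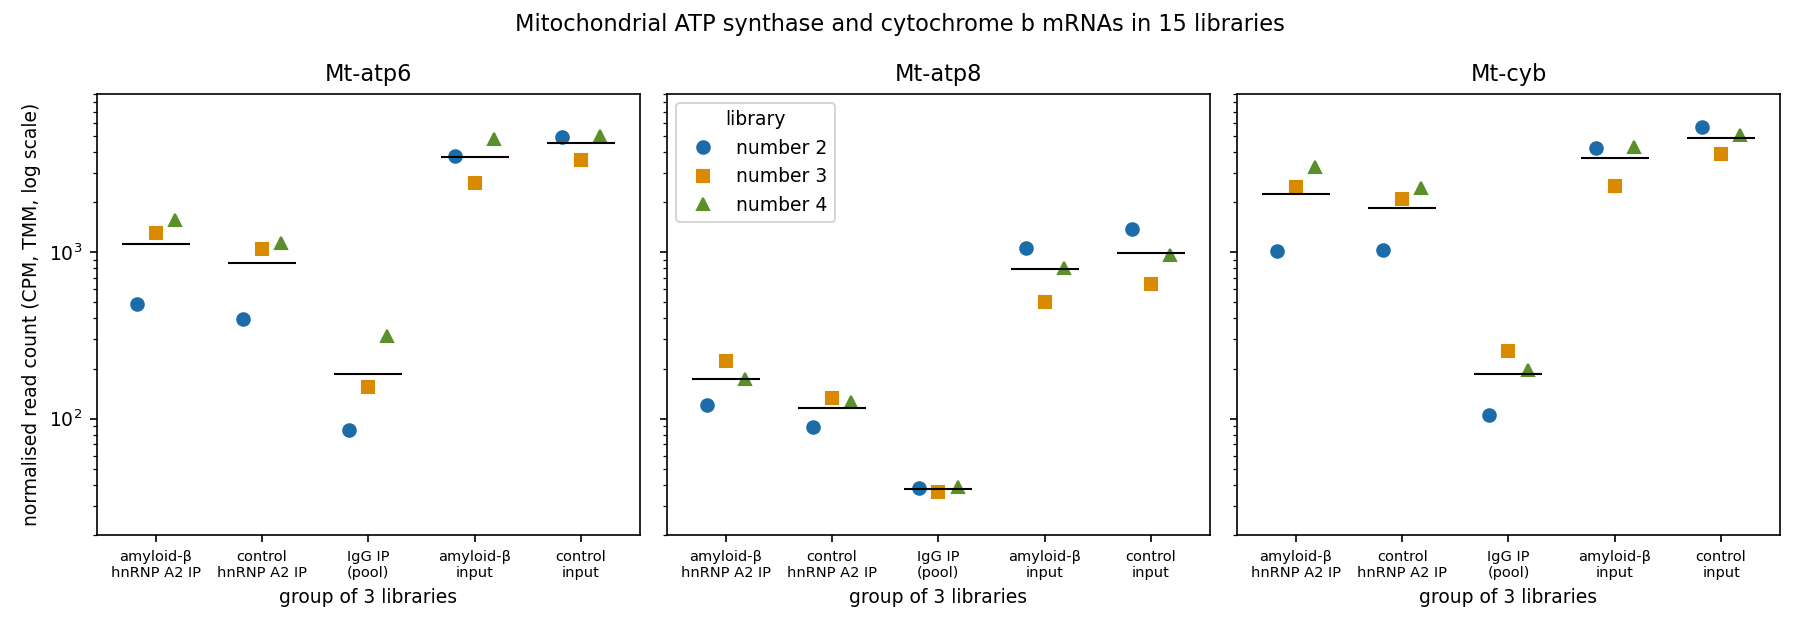
Normalised read counts (CPM after TMM scaling, log axis) of Mt-atp6, Mt-atp8 and Mt-cyb in the 5 groups of 3 libraries. Each point is a library, its shape and colour give the number in its title, and the line is the group mean. IgG libraries lie lowest for each mRNA, and only for Mt-cyb does an hnRNP A2 library reach the range of input.

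Mt-atp6 and Mt-atp8 fell in hnRNP A2 RNA against input under both treatments, and Mt-cyb fell in control cells. In amyloid-β cells Mt-atp6 was 3.37-fold lower (log2 fold change -1.75, SE 0.45, adjusted p = 0.00835) and Mt-atp8 was 4.60-fold lower (-2.20, SE 0.35, adjusted p = 0.000334), by edgeR's quasi-likelihood test with Benjamini-Hochberg adjustment over all genes. The amyloid-β value of Mt-cyb was -0.73 on the log2 scale with a 95% interval of -1.62 to 0.16 (edgeR adjusted p = 0.180), which includes no difference. It was -0.39 without amyloid-β immunoprecipitate 2. Of 15303 genes tested in amyloid-β cells, 39.1% passed an adjusted p of 0.05 and 20.5% passed as lower. Of the 3 identifiers 2 passed as lower, and these lie on a single transcript.

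In control cells Mt-atp6 was 5.26-fold lower in hnRNP A2 RNA (log2 fold change -2.40, SE 0.47, edgeR adjusted p = 0.00151). Mt-atp8 was 8.59-fold lower (-3.10, SE 0.36, edgeR adjusted p = 6.0e-05), and 0.529% of genes had a lower value. Mt-cyb was 2.65-fold lower (-1.40, SE 0.42, edgeR adjusted p = 0.0180). All 3 identifiers passed as lower, of which Mt-atp6 and Mt-atp8 share a transcript. Of the 15303 genes, 37.4% passed in either direction and 18.4% as lower. The median of the 3 was -2.40, beside 0.02 over all genes. The Mt-cyb call was lost without control immunoprecipitate 2 (-1.12, edgeR adjusted p = 0.0706) and without control input 4 (-1.35, edgeR adjusted p = 0.0532).

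Every same-numbered pair had less of each mRNA in hnRNP A2 RNA than in input after TMM scaling, but by very different amounts. For Mt-cyb the log2 differences were -2.05, -0.02 and -0.41 in amyloid-β pairs 2, 3 and 4, and -2.46, -0.90 and -1.07 in control pairs. Pair 2 stood lowest under either treatment. With library totals in place of TMM factors, the Mt-cyb difference turned to 0.34 and 0.05 in amyloid-β pairs 3 and 4. That scaling moved the median of all genes to 0.48 in amyloid-β cells and 0.65 in control cells, where the control Mt-cyb value of -0.76 did not pass (edgeR adjusted p = 0.128). The hnRNP A2 and input libraries also differed in the records that were assigned to no gene, which were 65.5% to 71.7% of records in hnRNP A2 libraries and 76.0% to 85.5% in input libraries. Records without a unique alignment were 13.9% to 28.4% of aligned records in hnRNP A2 libraries and 46.8% to 67.2% in input libraries. Their part in the values of these mRNAs was not tested. As a share of all records, Mt-cyb was 0.0765% ± 0.0334 in hnRNP A2 libraries and 0.0663% ± 0.0176 in input libraries (SD, n = 6 each). By treatment it was 0.0842% in hnRNP A2 libraries and 0.0621% in input of amyloid-β cells, but 0.0688% in hnRNP A2 libraries and 0.0706% in input of control cells, so its direction turned under that denominator in amyloid-β cells and not in control cells. Mt-atp6 and Mt-atp8 stayed lower in hnRNP A2 libraries under it.

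Against IgG, all 3 mRNAs were higher in hnRNP A2 RNA. Other mitochondrial genes were known to lead this comparison when these mRNAs were chosen. The tests over IgG, with or without a block, are therefore not independent support. Mt-cyb averaged 2043 ± 875 CPM in hnRNP A2 libraries (SD, n = 6) and 185 ± 75.3 CPM in IgG libraries (SD, n = 3), a 9.93-fold difference (log2 fold change 3.31, SE 0.48, edgeR adjusted p = 0.00405). Mt-atp6 averaged 988 ± 460 CPM in hnRNP A2 libraries and 184 ± 117 CPM in IgG libraries, which is 2.25 on the log2 scale (SE 0.51) with an edgeR adjusted p of 0.0193. Mt-atp8 averaged 144 ± 47.0 CPM in hnRNP A2 libraries and 37.8 ± 1.52 CPM in IgG libraries, which is 1.85 on the log2 scale (SE 0.27) with an edgeR adjusted p of 0.00404. Their median was 2.25, beside 0.07 over all genes. Among 15304 genes, 13.6% passed in either direction and 7.79% as higher.

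Within treatments, the log2 fold changes over IgG in amyloid-β cells were 2.44 for Mt-atp6, 2.14 for Mt-atp8 and 3.45 for Mt-cyb (edgeR adjusted p = 0.0288, 0.00728 and 0.0101). In control cells they were 2.06, 1.57 and 3.17 in the same order (edgeR adjusted p = 0.0473, 0.0196 and 0.0132). Of all genes, 7.53% passed in amyloid-β cells and 6.72% in control cells, and 4.51% and 4.25% passed as higher. These comparisons share the IgG libraries, so the treatments are set side by side and not counted as separate support.

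The IgG calls rested on few libraries. Without IgG library 2, which had the lowest depth, the log2 fold changes over both treatments were 2.03, 1.87 and 3.13 for Mt-atp6, Mt-atp8 and Mt-cyb, and all 3 passed (edgeR adjusted p = 0.0425, 0.00805 and 0.00934). Without IgG library 3, Mt-atp6 did not pass (2.08, edgeR adjusted p = 0.0526). Without IgG library 4 the values were 2.86, 1.91 and 3.33 and none passed (edgeR adjusted p = 0.0920, 0.0658 and 0.0658), with 21 genes called in place of 2084. Directions did not change.

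Same-numbered hnRNP A2 and IgG libraries deviated together from their group means over 8976 genes, with correlations of 0.175 to 0.357 in amyloid-β cells and 0.148 to 0.341 in control cells. Libraries of different numbers reached 0.171 and 0.140 in the same order, close to the lowest of these. With the number as a block, the edgeR log2 fold changes over IgG were 2.41, 2.01 and 3.40 for Mt-atp6, Mt-atp8 and Mt-cyb, with adjusted p = 2.45e-08, 4.96e-08 and 4.12e-10. The same block raised the share of all genes called to 35.2%, with 19.2% as higher. It held the calls without IgG library 4, at 2.80, 2.17 and 3.14. Within treatments the blocked calls covered 32.4% of genes in amyloid-β cells and 31.7% in control cells. Without the block, some calls within a treatment were also lost when single hnRNP A2 libraries were left out. In amyloid-β cells, Mt-atp6 did not pass without any of amyloid-β immunoprecipitates 3 and 4, control immunoprecipitate 4 and IgG libraries 2, 3 and 4, and Mt-atp8 and Mt-cyb did not pass without amyloid-β immunoprecipitate 4 or IgG library 4. In control cells, Mt-atp6 did not pass without any of amyloid-β immunoprecipitates 3 and 4, control immunoprecipitates 3 and 4 and IgG libraries 2, 3 and 4, and Mt-atp8 and Mt-cyb did not pass without control immunoprecipitate 3 or 4 or IgG library 4.

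IgG RNA held all 3 mRNAs at far lower levels than input. The log2 fold change of IgG over input was -4.32 for Mt-atp6, -4.47 for Mt-atp8 and -4.38 for Mt-cyb (SE 0.48, 0.42 and 0.44; edgeR adjusted p = 3.24e-05, 1.03e-05 and 1.35e-05). In linear terms these are 19.9-fold, 22.2-fold and 20.8-fold lower. Of 14205 genes, 30.6% passed and 16.3% passed as lower. Without IgG library 2 the values were -4.14, -4.56 and -4.24 in the same order. The calls held without each IgG or input library in turn, while the count of genes called fell to 2193 without IgG library 4, against 4341 with all libraries. Both sets of immunoprecipitates thus had less of the ATP synthase mRNAs than input, and the IgG set had the least.

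**Figure D2:**
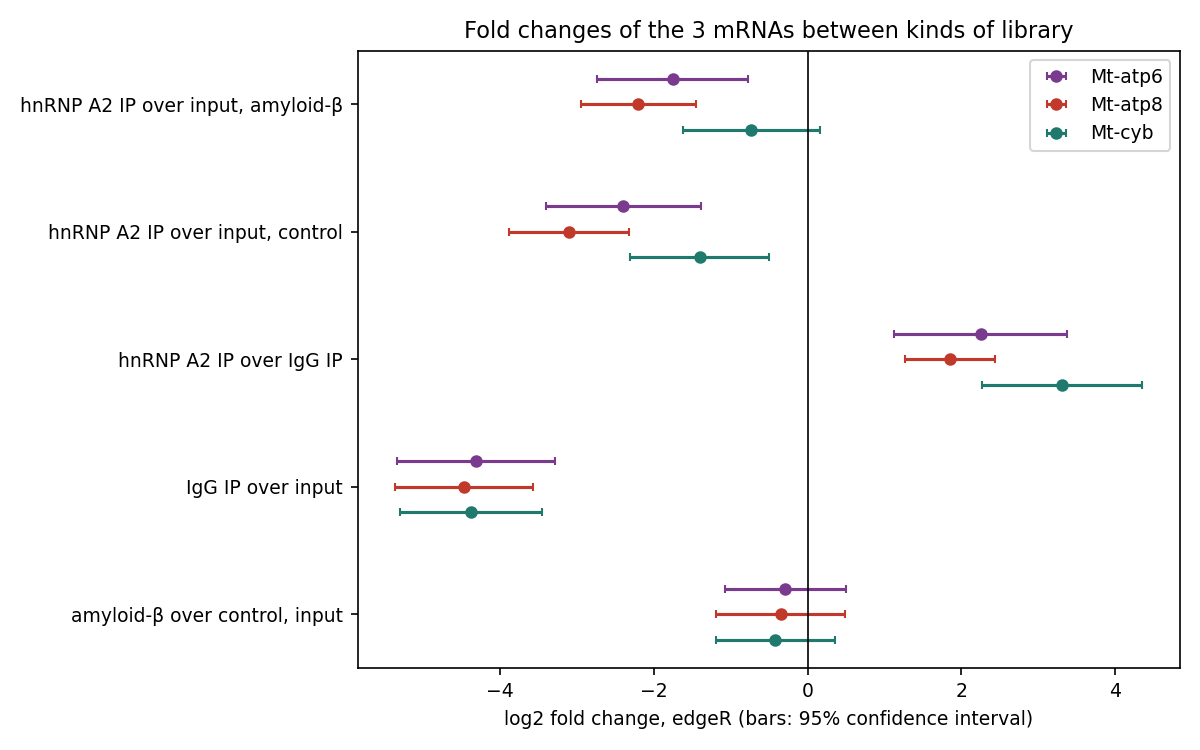
Log2 fold changes of the 3 mRNAs from edgeR (points) with 95% confidence intervals (bars), by comparison. Values over IgG lie above 0 and values of IgG over input below -4, the interval of Mt-cyb over input in amyloid-β cells includes 0, and all 3 intervals of amyloid-β over control in input include 0. In input the sign of single pairs depends on the scaling.

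The mRNAs were counted in different proportions in the hnRNP A2 and input libraries, but the paired differences did not pass correction. The ratio of counts within a library does not depend on scaling. For Mt-cyb to Mt-atp6 it was 2.10, 1.89 and 2.07 in amyloid-β immunoprecipitates 2, 3 and 4, and 2.59, 2.01 and 2.12 in control immunoprecipitates. It was 1.12, 0.957 and 0.904 in amyloid-β input and 1.14, 1.09 and 1.02 in control input. All 6 hnRNP A2 libraries lay above all 6 input libraries. How often the ratios of other gene pairs separate in this way was not counted. The paired difference was 1.03 ± 0.13 on the log2 scale (SD, n = 6 pairs), a ratio 2.05-fold higher in hnRNP A2 RNA in 6 of 6 pairs. The 2-sided exact permutation p was 0.0312, the smallest that 6 pairs allow, and 0.0625 after adjustment over 6 ratio tests, so it did not pass the correction. Same-numbered hnRNP A2 and input libraries of amyloid-β cells deviated together unevenly, with correlations of 0.023 to 0.478. Libraries of different numbers reached 0.414. A link beyond the number was thus not shown for each of these 3 of the 6 pairs. The 6 pairs carry only 3 numbers, and averaged by number they could not give an exact permutation p below 0.25. Taken without pairing, the same libraries gave an adjusted exact permutation p of 0.0130. That test treats all libraries as independent, although amyloid-β and control libraries of a number deviated together. Their correlations were 0.740 to 0.928 in hnRNP A2 RNA and 0.540 to 0.681 in input, so this p is not taken as support.

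In IgG libraries 2, 3 and 4 the Mt-cyb to Mt-atp6 ratio was 1.22, 1.65 and 0.625. The first of these has a 95% counting interval of 0.460 to 3.34, because it is made of the 11 and 9 counts given above. The IgG ratios overlapped those of input, with a mean log2 difference of 0.06 from input (2-sided exact permutation p = 0.833, n = 3 and 6). All lay below the hnRNP A2 ratios, by 0.97 on average on the log2 scale (exact permutation p = 0.0238, the smallest this design allows, and 0.0625 adjusted). This test too treats amyloid-β and control libraries of a number as independent. How often the ratios of other gene pairs separate from IgG in this way was not counted. Without IgG library 2, 3 or 4 the difference was 1.06, 1.28 or 0.58. The exact permutation p was 0.0714 in each case, the smallest those fewer libraries allow, so it does not tell these cases apart.

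The 2 reading frames of the ATP synthase mRNA were also counted in varying proportion. Mt-atp8 to Mt-atp6 was 0.249, 0.171 and 0.111 in amyloid-β immunoprecipitates and 0.224, 0.127 and 0.110 in control immunoprecipitates. It was 0.444, 0.234 and 0.125 in IgG libraries, the first with a 95% counting interval of 0.100 to 1.59. Input had 0.280, 0.193 and 0.168 in amyloid-β cells and 0.277, 0.180 and 0.195 in control cells. Within each group library 2 stood highest, and the hnRNP A2 and input ranges overlapped. Pair by pair the ratio was lower in hnRNP A2 RNA in 6 of 6 pairs, by -0.43 ± 0.26 on the log2 scale (SD, n = 6; exact permutation p = 0.0312, adjusted 0.0625). Without pairing, the exact permutation p was 0.121 and 0.242 adjusted, so this difference rests on the pairing by number. Against IgG the difference was -0.58 (exact permutation p = 0.262, adjusted 0.393), with -0.12 without IgG library 2 and -1.04 without IgG library 4, and between IgG and input it was 0.15 (exact permutation p = 0.690, adjusted 0.829). Library 2 also had the highest share of records assigned ambiguously between genes in 5 of 5 groups, 0.674% to 1.91% in libraries 2 and 0.511% to 1.53% in the others, and the part of this in the ratio was not tested. With the counts of Mt-atp6 and Mt-atp8 added, the log2 fold change in hnRNP A2 RNA over input was -1.82 in amyloid-β cells and -2.50 in control cells (edgeR adjusted p = 0.00502 and 0.000847).

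**Figure D3:**
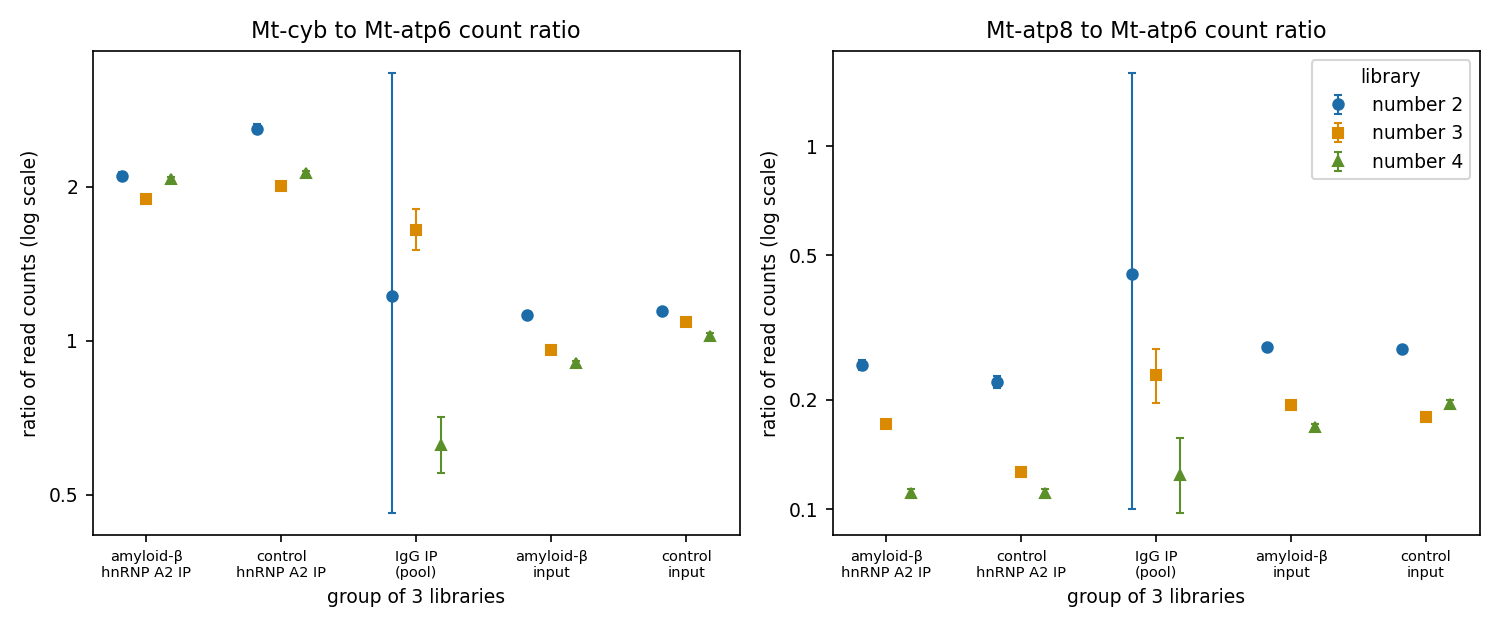
Ratio of read counts within each library (log axis), Mt-cyb to Mt-atp6 on the left and Mt-atp8 to Mt-atp6 on the right, in the 5 groups of 3 libraries. Bars are 95% counting intervals, and most are smaller than the points. The Mt-cyb to Mt-atp6 ratio is 1.89 or more in every hnRNP A2 library and 1.14 or less in every input library, while the IgG libraries scatter.

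Amyloid-β was set against control first in input, where the comparison asks whether total levels differed. No gene passed in edgeR, 0 of 13793 or 0%, with 188 at an unadjusted p under 0.05. DESeq2 and voom also called 0, with 335 and 71 at an unadjusted p under 0.05. The log2 fold change was -0.29 for Mt-atp6 (95% interval -1.07 to 0.49), -0.35 for Mt-atp8 (-1.19 to 0.49) and -0.42 for Mt-cyb (-1.19 to 0.36), each with an edgeR adjusted p of 0.954. With 1 library left out in turn these ran over -0.54 to -0.10, -0.58 to -0.09 and -0.58 to -0.22, and none passed. In these cultures, fewer cells of a type and less RNA per cell cannot be told apart. Pairs 2, 3 and 4 differed by -0.39, -0.47 and -0.06 for Mt-atp6, by -0.37, -0.36 and -0.27 for Mt-atp8, and by -0.41, -0.65 and -0.23 for Mt-cyb with TMM scaling, but pair 4 turned to 0.24, 0.03 and 0.06 with library totals. That scaling moved the median of all genes to 0.15. With the number as a block the edgeR values were -0.31, -0.35 and -0.44 for Mt-atp6, Mt-atp8 and Mt-cyb (SE 0.25 each). None passed with the block (edgeR adjusted p = 0.609, 0.568 and 0.468). The 95% intervals without a block include no difference and also differences as large as their ends.

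In hnRNP A2 RNA the mean pair differences after TMM scaling ran the other way for all 3 mRNAs, though for Mt-cyb not in every pair. Mt-atp8 was higher in the amyloid-β library of each pair, with log2 differences of 0.44, 0.75 and 0.46 in pairs 2, 3 and 4. Mt-atp6 differed by 0.29, 0.32 and 0.46, and Mt-cyb by -0.01, 0.23 and 0.42. So Mt-atp6 and Mt-atp8 had higher values with amyloid-β in each pair and Mt-cyb in 2 of 3. The share of all genes that were higher in each pair was not counted. The groups overlapped for all 3 mRNAs. Mt-atp6 spanned 3.23-fold among the amyloid-β immunoprecipitates and 2.87-fold among the control immunoprecipitates, against a fitted difference between treatments of 1.29-fold.

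The fitted log2 difference of amyloid-β over control in hnRNP A2 RNA was 0.37 (SE 0.51) for Mt-atp6, 0.57 (SE 0.25) for Mt-atp8 and 0.27 (SE 0.46) for Mt-cyb. In this fit without a block, edgeR called 0 of 15118 genes or 0%, with 42 at an unadjusted p under 0.05. What the fit with a block called is given below with the other alternatives. Same-numbered amyloid-β and control immunoprecipitates deviated together, with correlations of 0.740 to 0.928. With the number as a block the values were 0.35 (SE 0.07), 0.55 (SE 0.08) and 0.21 (SE 0.08) in the same order. With any 1 library left out, the unblocked values ran over 0.03 to 0.73 for Mt-atp6, 0.34 to 0.77 for Mt-atp8 and -0.08 to 0.62 for Mt-cyb. The amyloid-β effect on hnRNP A2 RNA less that on input was 0.64 (SE 0.63) for Mt-atp6, 0.90 (SE 0.47) for Mt-atp8 and 0.67 (SE 0.58) for Mt-cyb on the log2 scale. As an interaction over all genes, edgeR called 0 of 15303, or 0%, with 125 at an unadjusted p under 0.05.

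**Figure D4:**
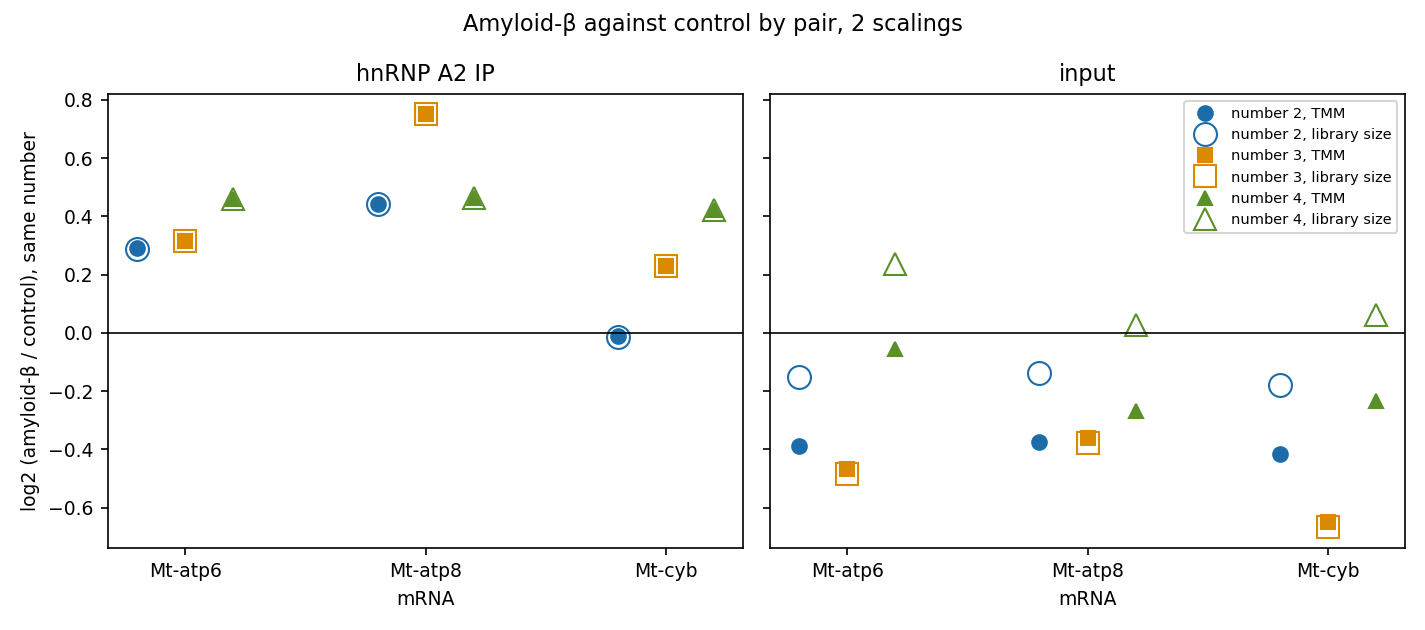
Log2 of amyloid-β over control for same-numbered libraries, in hnRNP A2 immunoprecipitates (left) and input (right), with TMM scaling (filled) and library totals alone (open). In hnRNP A2 immunoprecipitates 8 of the 9 TMM values lie above 0 and the scaling makes little difference. In input all 9 TMM values lie below 0, but the 3 of pair 4 lie above 0 with library totals.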

How the data were processed

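The deposited files hold whole-number read counts per Ensembl gene identifier for 15 libraries, made by the authors from paired-end reads of a stranded total RNA kit, per the labels' protocols. The submitters' processing notes name STAR 2.7.1, HTSeq, R 4.2.2 and DESeq2 with no role. The genome build, annotation, counting mode and strand setting were not stated there. The 5 summary rows that name no gene held 65.5% to 71.7% of records in hnRNP A2 libraries, 68.2% to 91.4% in IgG libraries and 76.0% to 85.5% in input, and were left out. The identifiers carry no symbols, and 0 of the 47357 genes of the RefSeq table (GRCr8) carries an Ensembl identifier, so the names of the 3 mRNAs are those they were chosen under and no further gene is named. The members and lists were chosen with earlier results of these data known.

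Genes were filtered with edgeR's filterByExpr, scaled by TMM and fitted with its quasi-likelihood test on the libraries of each comparison (R 4.3.3, edgeR 4.0.16). All 3 mRNAs passed the filter in every comparison. Calls used a Benjamini-Hochberg adjusted p under 0.05 over all genes. The fits for hnRNP A2 over IgG treat the amyloid-β and control libraries of a number as independent unless the number is a block. Count ratios were compared by 2-sided exact permutation tests, which also treat the amyloid-β and control libraries of a number as independent. The same-number correlation of deviations was 0.540 to 0.681 between amyloid-β and control input, and 0.740 to 0.928 between amyloid-β and control hnRNP A2 libraries. Between hnRNP A2 and input libraries it was 0.313 to 0.611 in control cells, but 0.023 to 0.478 in amyloid-β cells. Between IgG and amyloid-β input it was -0.12 to 0.139. In the comparisons with amyloid-β input, a link beyond the number was therefore not shown for every hnRNP A2 or IgG library. The ratio tests of hnRNP A2 RNA over input paired libraries by number all the same, with the unpaired test as an alternative. No libraries were merged as duplicates. Alternatives were other size factors, DESeq2 1.42.0, voom (limma 3.58.1), no filter, 1 fit of all libraries, the replicate block, summed ATP synthase counts and leaving out each library. The block without each IgG library was added after seeing the data. The mRNAs most alike by Pearson correlation of log2 CPM (prior count 1) were sought among genes averaging at least 10 CPM. The fits were first tested on simulated data.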

Additional observations from a re-analysis of the deposited data

Results flagged for a closer look

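The differences of amyloid-β from control for Mt-atp6 and Mt-atp8 had opposite signs in hnRNP A2 RNA and in input in every same-numbered pair after TMM scaling. The share of all genes with this pattern was not counted, and Mt-atp6 and Mt-atp8 lie on a single transcript. The mean log2 difference of amyloid-β over control for Mt-atp6 was 0.36 ± 0.09 in hnRNP A2 libraries and -0.30 ± 0.22 in input (SD, n = 3 pairs each). For Mt-atp8 it was 0.55 ± 0.17 in hnRNP A2 libraries and -0.34 ± 0.06 in input (SD, n = 3 pairs each). With library totals in place of TMM factors, input pair 4 turned to 0.24 for Mt-atp6 and 0.03 for Mt-atp8, so the opposition did not hold in every pair. No p-value is given for this difference in these mRNAs, since their hnRNP A2 values were known when they were chosen. As an interaction over all genes without a block, edgeR called 0 of 15303 genes, which included these mRNAs. Groups of 3 are too small for the check on single libraries that stand far from the rest.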

How the results depend on the processing

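Of 402 alternative values of the tested mRNAs, 370 kept direction and side of the threshold, 32 kept direction without passing, and 0 reversed. The 370 include values that did not pass in the main fit either, and fits that left out a library of the other treatment. Most of the losses were in the comparisons over IgG. With 1 library left out, Mt-atp6 over IgG was lost in 7 of 9 fits in control cells and 6 of 9 in amyloid-β cells. With library totals alone, Mt-cyb over input in control cells was -0.76 (edgeR adjusted p = 0.128). With voom, Mt-atp6 over IgG was 2.27 in amyloid-β cells and 1.91 in control cells (adjusted p = 0.0534 and 0.0843). Genes called over IgG numbered 2084 for both treatments, 1153 in amyloid-β cells and 1029 in control cells. In the same order, voom called 1097, 599 and 415, and the replicate block 5392, 4963 and 4854. The block called 5445, 5058 and 4970 without IgG library 2, 5308, 5155 and 5172 without library 3, and 3731, 3595 and 3331 without library 4. With all 15 libraries in 1 fit, 666 were called in amyloid-β cells and 583 in control cells. Of amyloid-β over control in hnRNP A2 RNA, the block called 1 of 15118 genes, which was Mt-atp8. That call was known when the mRNAs were chosen and supports nothing here. Among the mRNAs tested the block changed no call, and Mt-cyb over input in amyloid-β cells was -0.83 (edgeR adjusted p = 0.0854). The cause of these changes was not tested.

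The effect of amyloid-β on hnRNP A2 RNA less that on input was 0.47 for Mt-atp6 with library totals, and 0.68 for Mt-atp8 with both ATP synthase genes summed. The Mt-cyb to Mt-atp6 difference of hnRNP A2 over input was 1.03 without pairing, with the smaller p and its limit given above. As a share of all records, the log2 of mean hnRNP A2 over mean input was -0.78 for Mt-atp6, -1.37 for Mt-atp8 and 0.21 for Mt-cyb with both treatments together, while in control cells alone Mt-cyb stayed lower in hnRNP A2 libraries. Over IgG the same share gave 3.11 for Mt-atp6, 2.68 for Mt-atp8 and 4.00 for Mt-cyb, in place of 2.44, 1.91 and 3.47 as a share of gene counts.

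With each library left out in turn, genes called over IgG ran from 21 to 2428 for both treatments, 0 to 1944 in amyloid-β cells and 0 to 1943 in control cells, and IgG over input from 2193 to 4806. Over IgG, both treatments, values ran from 2.03 to 2.86 for Mt-atp6, 1.75 to 1.96 for Mt-atp8 and 3.13 to 3.60 for Mt-cyb. In amyloid-β cells they ran from 2.14 to 3.05, 1.92 to 2.35 and 3.10 to 3.80, and in control cells from 1.83 to 2.67, 1.47 to 1.73 and 2.95 to 3.47. Mt-cyb over input ran from -1.09 to -0.39 in amyloid-β cells and from -1.63 to -1.12 in control cells. Amyloid-β over control in hnRNP A2 RNA ran from 0.033 to 0.73, 0.34 to 0.77 and -0.084 to 0.62, and its excess over input from 0.30 to 1.00, 0.62 to 1.14 and 0.31 to 1.01. For IgG over input, the Mt-cyb to Mt-atp6 ratio ran from -0.24 to 0.46, with -0.03 also reversed, and the Mt-atp8 to Mt-atp6 ratio from -0.31 to 0.61. For hnRNP A2 over IgG these ran from 0.58 to 1.28 and from -1.04 to -0.12. IgG library 2 held 24 counts of the 3 mRNAs, which limits the precision of its values.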

Other observations

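Across all 15 libraries, Mt-atp6 and Mt-atp8 varied together with a Pearson correlation of log2 CPM of 0.96, Mt-atp6 and Mt-cyb with 0.95, and Mt-atp8 and Mt-cyb with 0.89. Without the IgG libraries (12 libraries) these were 0.95, 0.96 and 0.87. The libraries fall into 3 kinds with different levels, which the correlations include. Among 8973 genes averaging at least 10 CPM, the gene most like Mt-atp6 was ENSRNOG00000031033 in all 15 libraries and in the 12 without IgG (0.98 and 0.996). The gene most like Mt-cyb was ENSRNOG00000030700 in both (0.99 and 0.98). The genes nearest to Mt-atp8 reached 0.98 over 15 libraries and 0.99 over 12, and 1 gene was among the 2 nearest of both Mt-atp6 and Mt-atp8 over 15. None of the 3 mRNAs was among the 2 nearest of another.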
